A study of Mus musculus with 12 samples.

Results

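The genes described here encode the machinery that small interfering RNA (siRNA) and antisense loads depend on: the argonautes Ago1, Ago2, Ago3 and Ago4, the RNases Dicer1 and Drosha, their partners Dgcr8 and Tarbp2, the nuclear exporter Xpo5, and RNase H1 (Rnaseh1). They were picked by symbol, by a rule that names no measured value, though with earlier results of these data known. Of the 10 listed symbols, 9 had a row among the 25540 gene symbols of the count table, and all 9 passed the filter on low counts that left 15720 genes for testing. Dgcr8 was not analysed here. Liver mRNA came from 12 BALB/c mouse samples, 3 in each of 4 groups, all injected with a preparation that the labels call iExos, taken here as exosomes, small vesicles released by cells, from the title of the series. The groups were siSTAT3, its control siCntrl, mASO STAT3 and its control mASO Scrbl. ASO commonly abbreviates antisense oligonucleotide and si marks an siRNA; what the m means is unstated in the labels. Liver fibrosis is the setting named in the title, and the transcription factor STAT3 the target. No age, sex, dose, injury or time is given in the labels, and uninjected livers were not analysed here.

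In RNA interference, Drosha, with its partner DGCR8, cuts a primary microRNA in the nucleus, exportin 5 carries the hairpin out, and Dicer, with TRBP (the product of Tarbp2), cuts it to a short duplex. One strand is then bound by an argonaute protein. A synthetic siRNA joins this path late and is handed to an argonaute directly. Of the mammalian argonautes, Ago2 is the one known chiefly for cutting a matched target. RNase H1 cuts the RNA strand of an RNA and DNA hybrid, the route by which many antisense oligonucleotides lower their target.

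Library totals ran from 39844158 to 57926887 counts in siSTAT3, 55406038 to 67791159 in siCntrl, 50024153 to 61804382 in mASO STAT3 and 64619765 to 66498894 in mASO Scrbl. Levels are CPM, counts scaled to one common library size, with totals corrected for composition by TMM, whose factors were 0.804 to 0.901 in the STAT3 groups and 1.11 to 1.27 in the control groups. Stat3 itself, the labelled target, averaged 109.9 ± 16.2 CPM in siSTAT3 against 112 ± 7.50 CPM in siCntrl. It averaged 103 ± 13.7 CPM in mASO STAT3 against 99.2 ± 8.40 CPM in mASO Scrbl (SD, n = 3 each, edgeR adjusted p = 0.868 and 0.792), though under library totals it was called lower in both arms (log2 fold changes −0.54 and −0.53, edgeR adjusted p = 0.00446 and 0.00413), so its mRNA does not check the labels, and each group goes by its label. Every marker with a row of hepatocytes, macrophages, stellate cells, endothelial cells, cholangiocytes, lymphocytes and cycling cells was counted in every library. The 6 hepatocyte markers, of which 5 were called higher in each arm, summed to 120031 to 132346 CPM in siSTAT3 against 47388 to 84149 CPM in siCntrl, and to 105420 to 144651 CPM in mASO STAT3 against 54727 to 83868 CPM in mASO Scrbl. Most of each sum was Alb, with means of 95245 and 51591 CPM in the siRNA arm and 101362 and 56795 CPM in the mASO arm. Hnf4a was called in neither arm (log2 fold changes 0.27 and 0.22, edgeR adjusted p = 0.279 and 0.400). The 6 stellate cell markers, of which 5 were called lower in each arm and 1 higher in the mASO arm, summed to 106 to 141 CPM in siSTAT3 against 721 to 999 CPM in siCntrl, and to 135 to 170.4 CPM in mASO STAT3 against 493 to 1223 CPM in mASO Scrbl. The 4 markers of cycling cells, of which 2 were called lower in each arm, were at 5.46 to 10.9 CPM in siSTAT3 against 15.97 to 43.3 CPM in siCntrl, and at 4.13 to 12.4 CPM in mASO STAT3 against 18.1 to 55.9 CPM in mASO Scrbl. Of 5 macrophage markers with a row, 0 were higher and 3 lower in the siRNA arm and 1 was higher and 2 lower in the mASO arm, and of 5 sinusoidal endothelial markers 3 and 2 were lower. Of 4 cholangiocyte markers 3 and 2 were lower, and of 4 lymphocyte markers 1 was higher and 1 lower in the siRNA arm and 2 were higher in the mASO arm. The part of these markers in the results below was not tested, and in whole liver RNA fewer cells of a type and less RNA per cell cannot be told apart.

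Each STAT3 group was set against the control with the same kind of load, to ask whether the machinery itself differed between livers given a STAT3 load and livers given a control load. Ago2 was lower and Ago3 higher in both arms. In the siRNA arm Tarbp2 was also higher and Rnaseh1 also lower, and in the mASO arm Drosha and Xpo5 were also lower. By edgeR's quasi-likelihood test with Benjamini-Hochberg adjustment over all genes, 2 of the 9 genes were called higher and 2 lower in siSTAT3, where 22.4% of all tested genes were called higher and 23.4% lower, or 45.7% in either direction. In mASO STAT3, 1 was higher and 3 were lower, against 21.3% and 22.5% of all tested genes, or 43.8% together. The 9 genes were thus called about as often as genes at large, and none of them changed by as much as 2-fold in either arm on this scaling. Nothing in the labels ties each replicate to its own animal, so these p-values measure the spread between samples, which may be technical.

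**Figure D1:**
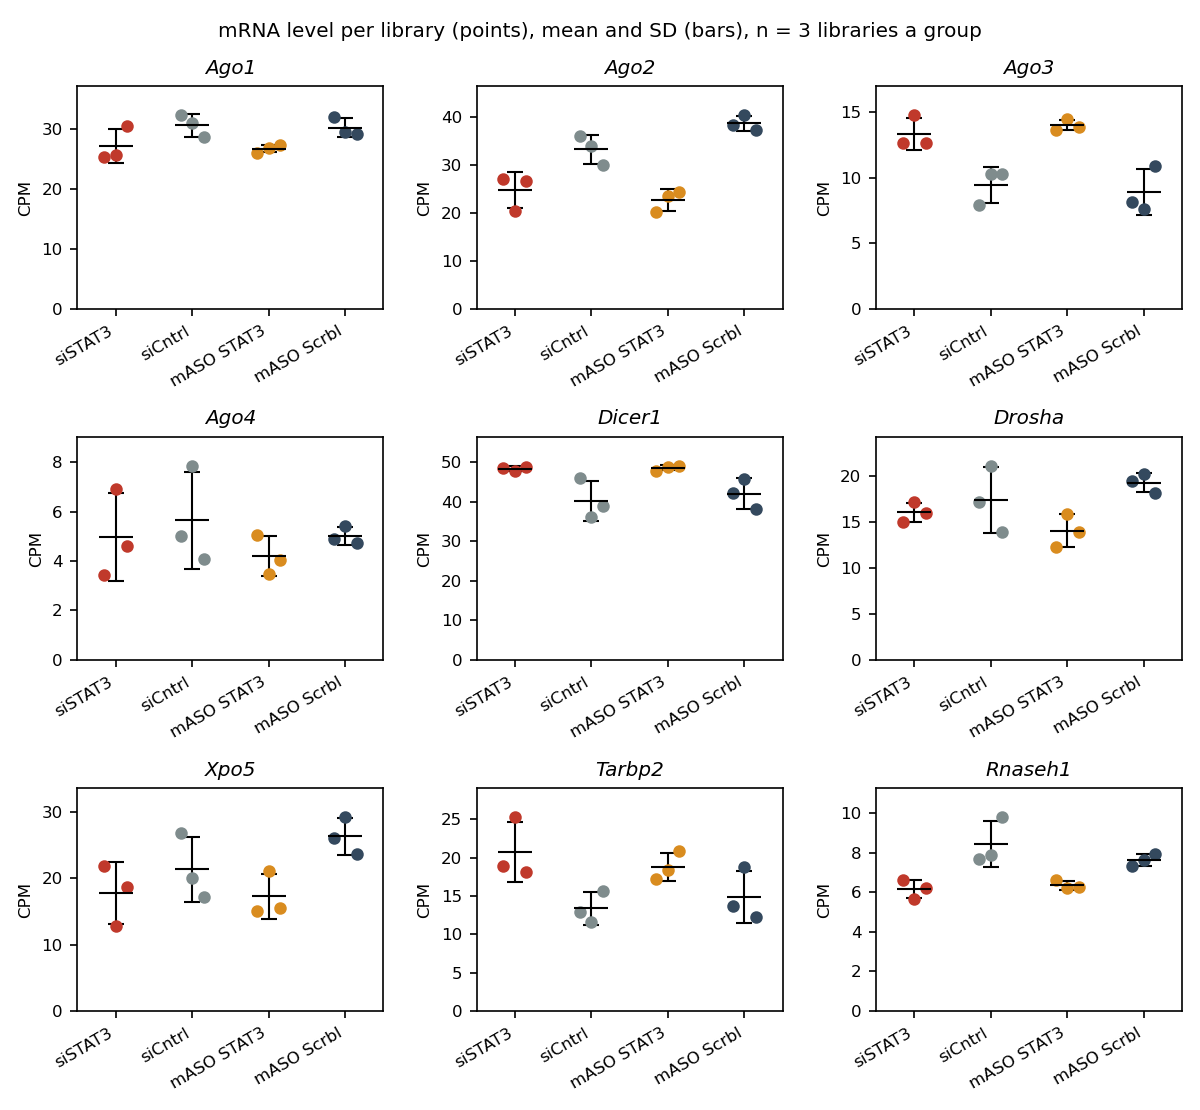
CPM (vertical axis, from 0) of the 9 genes in each of the 12 libraries, with the mean and SD of the 3 libraries in each group. Ago2 is lower, and Ago3 higher, in every STAT3 library than in every control library of its arm, while Ago4 overlaps between groups.

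Promoter sequences of RefSeq (GRCm38.p6), 250 bases before to 50 after a gene's start, were found for 8 of the 10 listed genes, in 9 entries. Ago2 and Rnaseh1 had no entry, so the searches below do not cover them. Ago1 had 2 entries, and the 8 genes include Dgcr8. Those of Ago3 and Tarbp2, called higher, and of Drosha and Xpo5, called lower, are shown because they let the 2 directions be set beside each other. Capitals mark CCAAT or its reverse complement ATTGG, and bases are given in the direction of transcription. The entries stand at chr4:126429493-126429792 (minus strand, Ago3), chr15:102517942-102518241 (plus strand, Tarbp2), chr15:12824565-12824864 (plus strand, Drosha) and chr17:46202561-46202860 (plus strand, Xpo5).
Ago3: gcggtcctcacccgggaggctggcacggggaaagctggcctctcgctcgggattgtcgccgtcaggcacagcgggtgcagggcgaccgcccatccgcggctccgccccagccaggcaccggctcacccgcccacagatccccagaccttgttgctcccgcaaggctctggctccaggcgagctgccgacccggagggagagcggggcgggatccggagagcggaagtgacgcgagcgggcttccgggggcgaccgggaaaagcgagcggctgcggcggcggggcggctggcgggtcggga
Tarbp2: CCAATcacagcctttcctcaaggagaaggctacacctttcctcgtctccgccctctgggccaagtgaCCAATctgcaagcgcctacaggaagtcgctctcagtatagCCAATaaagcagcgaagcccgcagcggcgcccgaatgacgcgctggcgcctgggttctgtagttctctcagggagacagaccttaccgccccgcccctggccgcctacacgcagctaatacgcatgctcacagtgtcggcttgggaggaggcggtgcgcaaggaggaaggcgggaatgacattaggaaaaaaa
Drosha: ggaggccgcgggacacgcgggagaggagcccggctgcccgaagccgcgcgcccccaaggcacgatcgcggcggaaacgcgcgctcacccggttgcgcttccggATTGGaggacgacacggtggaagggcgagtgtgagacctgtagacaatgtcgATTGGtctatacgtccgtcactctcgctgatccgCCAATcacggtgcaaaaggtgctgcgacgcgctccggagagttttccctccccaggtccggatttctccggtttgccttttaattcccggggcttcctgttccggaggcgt
Xpo5: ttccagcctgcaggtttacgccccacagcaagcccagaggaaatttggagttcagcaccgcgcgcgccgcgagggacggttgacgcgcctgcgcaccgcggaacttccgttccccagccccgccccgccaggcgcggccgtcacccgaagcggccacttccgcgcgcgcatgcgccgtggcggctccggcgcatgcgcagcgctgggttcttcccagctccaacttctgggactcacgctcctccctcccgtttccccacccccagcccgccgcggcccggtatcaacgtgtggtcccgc
The letters of a STAT site, TTCNNNGAA, searched on both strands, were in 0 of the 9 entries, where 8.3% of 32851 RefSeq promoters of this length hold them. Neither CACGTG (7.15% of all promoters) nor TATAAA (13.6%) was found in any of the 9. CCAAT on either strand was found 3 times each in Drosha and Tarbp2, which moved in opposite directions and were called in different arms, and 0 times in Ago3 and Xpo5. Of the entries not shown, both of Ago1 and that of Dicer1 held it 1 time, Dgcr8 4 times and Ago4 0 times. At least 1 was in 37.4% of all promoters. All 4 windows were rich in CG dinucleotides, with 37 in Ago3, 21 in Tarbp2, 37 in Drosha and 40 in Xpo5, where the median promoter holds 7. These matches describe letters in a window and were not tested against the changes.

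Ago2 had 27.2, 20.5 and 26.6 CPM in siSTAT3, against 36.0, 34.0 and 30.1 CPM in siCntrl. In mASO STAT3 Ago2 stood at 20.2, 23.7 and 24.4 CPM, against 38.4, 40.5 and 37.5 CPM in mASO Scrbl. All 6 STAT3 libraries lay below all 6 control libraries. As a fold change Ago2 stood at 0.743 for siSTAT3 over siCntrl (95% interval 0.606 to 0.911, edgeR adjusted p = 0.0202). For mASO STAT3 over mASO Scrbl it stood at 0.586 (0.478 to 0.719, edgeR adjusted p = 5.00e-04). In the mASO arm the call held under all 14 alternatives. The call for siSTAT3 ended in a fit of the compared groups alone (edgeR adjusted p = 0.0555) and without siCntrl 1 (0.0711), siCntrl 2 (0.0556) or siSTAT3 2 (0.0714), within a range of 0.000220 to 0.0714 over the alternatives.

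Ago3, an argonaute that binds microRNAs like its relatives and is not known chiefly for cutting, moved the other way. Its levels were 12.6, 14.8 and 12.7 CPM in siSTAT3, against 7.90, 10.3 and 10.3 CPM in siCntrl. In the other arm Ago3 had 13.7, 14.5 and 13.9 CPM in mASO STAT3, against 8.16, 7.63 and 10.9 CPM in mASO Scrbl. The groups did not overlap in either arm, and the mASO STAT3 libraries were close together. As a fold change Ago3 stood at 1.41 for siSTAT3 over siCntrl (1.10 to 1.81, edgeR adjusted p = 0.0270). For mASO STAT3 over mASO Scrbl it stood at 1.58 (1.23 to 2.02, edgeR adjusted p = 0.00605). Both calls ended when libraries were scaled by their totals alone (log2 fold changes −0.01 and 0.08, edgeR adjusted p = 0.978 and 0.721). That of the siRNA arm also ended with no filter (0.0619), in the compared groups alone (0.0547) and without siCntrl 1 (0.105) or siSTAT3 2 (0.0800). Over all alternatives the adjusted p of Ago3 ran from 0.0150 to 0.978 in the siRNA arm and from 6.66e-04 to 0.721 in the mASO arm.

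Ago1 and Ago4, the argonaute genes that neighbour Ago3 in the genome, passed the test in neither arm, except under library totals, where Ago1 was lower in both arms (edgeR adjusted p = 5.58e-04 and 1.90e-04) and Ago4 in the mASO arm (0.0267). The siSTAT3 libraries held 25.4, 25.7 and 30.5 CPM of Ago1, against 32.4, 31.0 and 28.6 CPM in siCntrl. The mASO STAT3 libraries held 26.1, 26.9 and 27.4 CPM of it, against 32.1, 29.5 and 29.2 CPM in mASO Scrbl. Its groups overlapped in the siRNA arm and not in the mASO arm, and its fold change was 0.887 (0.747 to 1.05, edgeR adjusted p = 0.241) and 0.885 (0.745 to 1.05, edgeR adjusted p = 0.236). Ago4 was the lowest in CPM of the 4 argonautes, at 3.43, 6.92 and 4.61 CPM in siSTAT3 against 5.02, 7.84 and 4.08 CPM in siCntrl. Its mASO STAT3 libraries held 5.07, 3.46 and 4.05 CPM, against 4.90, 5.41 and 4.72 CPM in mASO Scrbl. It was also the most uneven within groups, with up to 2.02-fold between libraries of a group against 1.20-fold for Ago1. Its intervals, 0.575 to 1.35 and 0.545 to 1.28 as fold changes, leave room for changes as large as those of Ago2. Levels of the 4 paralogs are uncertain where the counting could have split their shared reads.

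Because the argonautes changed unequally, their shares were compared within each library, a measure that no scaling between libraries enters. Of all argonaute counts, Ago2 took 39.6%, 30.2% and 35.8% in siSTAT3, against 44.3%, 40.9% and 41.1% in siCntrl. It took 31.0%, 34.5% and 35.0% in mASO STAT3, against 45.9%, 48.7% and 45.6% in mASO Scrbl. The share of Ago2 was thus lower by 6.92 and 13.2 percentage points in the STAT3 groups, with no overlap in either arm. Ago3 took 18.4%, 21.8% and 17.0% in siSTAT3, against 9.72%, 12.4% and 14.1% in siCntrl, and 21.1%, 21.1% and 19.96% in mASO STAT3, against 9.77%, 9.18% and 13.2% in mASO Scrbl. The share of Ago3 was higher by 7.01 and 9.98 percentage points, again with no overlap. Each of these 4 differences had an exact two-sided permutation p of 0.1, the smallest that 3 libraries against 3 allow. Ago1 (38.6% ± 2.09 in siSTAT3, 38.8% ± 1.31 in siCntrl, 39.6% ± 0.483 in mASO STAT3, 36.5% ± 1.69 in mASO Scrbl) and Ago4 (7.12% ± 2.72, 7.07% ± 2.07, 6.22% ± 1.42 and 6.04% ± 0.417 in the same groups, SD, n = 3) differed by less, although the share of Ago1 in the mASO arm did not overlap either (exact permutation p = 0.1).

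**Figure D2:**
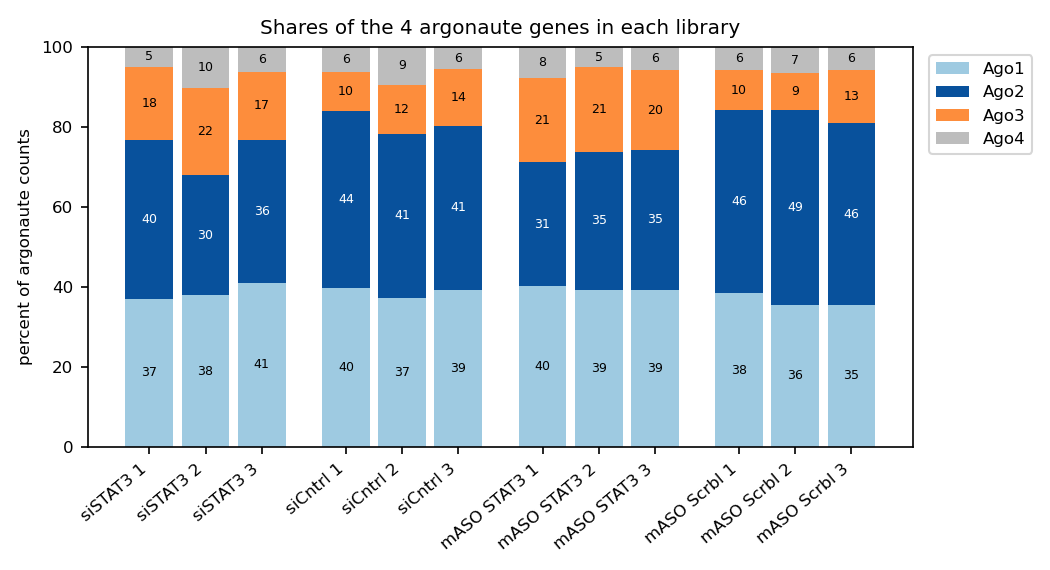
Percent of the summed counts of Ago1, Ago2, Ago3 and Ago4 that each gene took in each library (bars, stacked to 100). The Ago2 part spans 30.2 to 39.6 in the STAT3 libraries and 40.9 to 48.7 in the control libraries, and the Ago3 part 17.0 to 21.8 and 9.18 to 14.1.

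With both arms combined and labels permuted within each arm, a comparison added after the data were seen, the Ago2 share was lower by 10.1 percentage points and the Ago3 share higher by 8.50 (exact permutation p = 0.005 for each, the smallest of 400 regroupings, adjusted p = 0.015 over 6 shares and ratios). Neither share overlapped in either arm, and each moved the same way in both arms, so this p could only be the smallest. It adds nothing to the results of each arm. With 1 library left out the differences over both arms ran from −11.2 to −8.82 for Ago2 and from 7.82 to 9.13 for Ago3. The share of Ago1 differed by 1.46 percentage points (exact permutation p = 0.185, adjusted p = 0.222) and that of Ago4 by 0.118 (exact permutation p = 0.885, adjusted p = 0.885). Shares within a library add up to a whole, so the Ago2 and Ago3 results are not independent of each other. With both arms averaged in 1 edgeR fit, 59% of all tested genes were called in either direction.

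Dicer1, the RNase that makes the final duplex, was the most even of the processing genes in the STAT3 groups. It had 48.6, 47.7 and 48.8 CPM in siSTAT3, against 45.9, 36.1 and 38.8 CPM in siCntrl. The mASO STAT3 libraries held 47.8, 48.9 and 49.0 CPM of it, against 42.3, 45.7 and 38.1 CPM in mASO Scrbl. The groups did not overlap, yet Dicer1 missed the threshold in both arms (fold changes 1.20 and 1.16, edgeR adjusted p = 0.0831 and 0.170). Without siCntrl 1 Dicer1 was called higher in the siRNA arm (log2 fold change 0.37, edgeR adjusted p = 0.0305), and under library totals it was called lower in the mASO arm (−0.37, 0.0147). Drosha, the nuclear RNase of the first cut, had 15.04, 17.1 and 15.9 CPM in siSTAT3 against 17.2, 21.1 and 13.9 CPM in siCntrl, where the groups overlapped (fold change 0.923, edgeR adjusted p = 0.580). In the mASO arm it had 12.3, 15.9 and 13.9 CPM in mASO STAT3, against 19.4, 20.2 and 18.1 CPM in mASO Scrbl, with no overlap. There Drosha was lower, at a fold change of 0.729 (0.575 to 0.924, edgeR adjusted p = 0.0324). This call ended without mASO STAT3 1 (0.126), mASO STAT3 3 (0.0801), mASO Scrbl 1 (0.0747) or mASO Scrbl 2 (0.0861), with 4.46e-04 to 0.126 over the alternatives.

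Within a library, the log2 ratio of Dicer1 to Drosha counts was 1.59 ± 0.11 in siSTAT3 and 1.23 ± 0.39 in siCntrl, and 1.80 ± 0.17 in mASO STAT3 and 1.12 ± 0.06 in mASO Scrbl (SD, n = 3). The groups overlapped in the siRNA arm (exact permutation p = 0.2) and not in the mASO arm (exact permutation p = 0.1). Over both arms together the ratio was higher by 0.52 in the STAT3 groups (exact permutation p = 0.01, adjusted p = 0.02 over the 6 shares and ratios). The siRNA arm difference of 0.37 was 0.15 without siCntrl 2.

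Xpo5, which carries microRNA hairpins out of the nucleus, had 21.9, 12.7 and 18.7 CPM in siSTAT3 against 26.8, 20.02 and 17.2 CPM in siCntrl. Those groups overlapped (fold change 0.834, edgeR adjusted p = 0.340). In mASO STAT3 it had 15.1, 21.1 and 15.5 CPM, against 26.1, 29.2 and 23.7 CPM in mASO Scrbl, with no overlap. Xpo5 was lower there at a fold change of 0.656 (0.477 to 0.901, edgeR adjusted p = 0.0329), a call that ended without mASO STAT3 1 (0.114), mASO STAT3 3 (0.109), mASO Scrbl 1 (0.0649) or mASO Scrbl 2 (0.103), with 7.18e-04 to 0.114 over the alternatives.

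Tarbp2, the Dicer partner that binds double-stranded RNA, had the highest fold change of the 9 genes in the siRNA arm. It had 18.9, 25.3 and 18.2 CPM in siSTAT3, against 12.9, 11.5 and 15.7 CPM in siCntrl, with no overlap. Its fold change was 1.55 (1.17 to 2.06, edgeR adjusted p = 0.0143), and the call ended under library totals (log2 fold change 0.14, edgeR adjusted p = 0.530) and without siCntrl 2 (0.0639) or siSTAT3 2 (0.0638), with 0.00581 to 0.530 over the alternatives. In the mASO arm it had 17.2, 18.4 and 20.8 CPM in mASO STAT3 against 13.7, 18.7 and 12.3 CPM in mASO Scrbl. One mASO Scrbl library lay among the STAT3 libraries, and the fold change of 1.26 did not pass (0.953 to 1.67, edgeR adjusted p = 0.166). Without that library, mASO Scrbl 2, Tarbp2 was called higher in the mASO arm too (log2 fold change 0.53 against 0.34 with it, edgeR adjusted p = 0.0419).

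Rnaseh1, the RNase H1 gene on which antisense cleavage depends, had 6.59, 5.66 and 6.20 CPM in siSTAT3, against 7.68, 7.87 and 9.80 CPM in siCntrl. Every siSTAT3 library was below every siCntrl library, at a fold change of 0.729 (0.576 to 0.921, edgeR adjusted p = 0.0291). The call ended with no filter (0.0629), in the compared groups alone (0.0947) and without siCntrl 3 (0.136), siSTAT3 2 (0.0786) or siSTAT3 3 (0.0619), with 3.19e-04 to 0.136 over the alternatives. In the mASO arm it had 6.62, 6.20 and 6.26 CPM in mASO STAT3 against 7.33, 7.63 and 7.92 CPM in mASO Scrbl. These groups did not overlap either, and the fold change of 0.834 did not pass (0.660 to 1.05, edgeR adjusted p = 0.192). The log2 ratio of Rnaseh1 to Ago2 counts within a library was −2.002 ± 0.13 in siSTAT3 and −1.99 ± 0.33 in siCntrl, and −1.83 ± 0.20 in mASO STAT3 and −2.35 ± 0.09 in mASO Scrbl (SD, n = 3). The groups overlapped in the siRNA arm and not in the mASO arm (exact permutation p = 0.1), and mASO Scrbl also lay below siCntrl without overlap, by 0.36 (exact permutation p = 0.1). Over both arms the ratio differed by 0.25 (exact permutation p = 0.115, adjusted p = 0.173).

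In all, 3 of the 9 genes lay higher without overlap in the siRNA arm and 2 in the mASO arm, where 25.5% and 27.2% of all tested genes did. Lower without overlap were 2 in the siRNA arm and 5 in the mASO arm, against 27.5% and 29.6% of all tested genes. The median log2 fold change of the 9 genes was −0.17 in the siRNA arm and −0.26 in the mASO arm, where that of all tested genes was −0.04 and −0.05. With both arms averaged in the same fit, a comparison added after the data were seen, Ago3, Tarbp2 and Dicer1 were higher and Ago2, Xpo5, Rnaseh1 and Drosha lower. That is 3 and 4 of 9, against 28.1% and 30.9% of all tested genes, or 59% in either direction. In this average Ago2 (fold change 0.660, edgeR adjusted p = 1.20e-04, highest value over 19 alternatives 5.18e-04) and Rnaseh1 (0.779, edgeR adjusted p = 0.0125, highest 0.0473) kept their calls under all 19 alternatives. Ago3 (1.49, edgeR adjusted p = 8.55e-04) and Tarbp2 (1.40, edgeR adjusted p = 0.00647) lost theirs under library totals alone, where the adjusted p was 0.810 and 0.741. Dicer1 (1.18, edgeR adjusted p = 0.0255), Drosha (0.8202, 0.0417) and Xpo5 (0.739, 0.0232) missed the threshold in 4, 9 and 4 of the alternatives, with adjusted p up to 0.102, 0.122 and 0.0651. Dicer1 also lost its higher call under library totals, where it was instead called lower in this average (log2 fold change −0.30, edgeR adjusted p = 0.00557). Ago1 was called lower without siSTAT3 3 (0.0392) and under library totals (8.29e-06), as was Ago4 under library totals (0.00509).

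Scaling mattered for direction. With library totals alone the all-gene median moved to −0.53 in the siRNA arm and −0.63 in the mASO arm on the log2 scale. Of the 9 genes 0 were then higher and 5 lower in the siRNA arm, against 10.5% and 46.2% of all tested genes, and 0 higher and 7 lower in the mASO arm, against 9.7% and 50.5%. In the mean of both arms 0 were higher and 7 lower, against 13% and 58.1% of all tested genes. Ago3 was then nearly level in both arms and Dicer1 lay below 0, as did Tarbp2 in the mASO arm. Called lower under library totals alone were also Drosha and Xpo5 in the siRNA arm (edgeR adjusted p = 0.0129 and 0.0141) and Rnaseh1 in the mASO arm (6.33e-04). A scaling moves every gene and the all-gene median by about the same amount, so a place above or below that median says nothing on which scaling is right. Directions in the text are those under TMM.

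**Figure D3:**
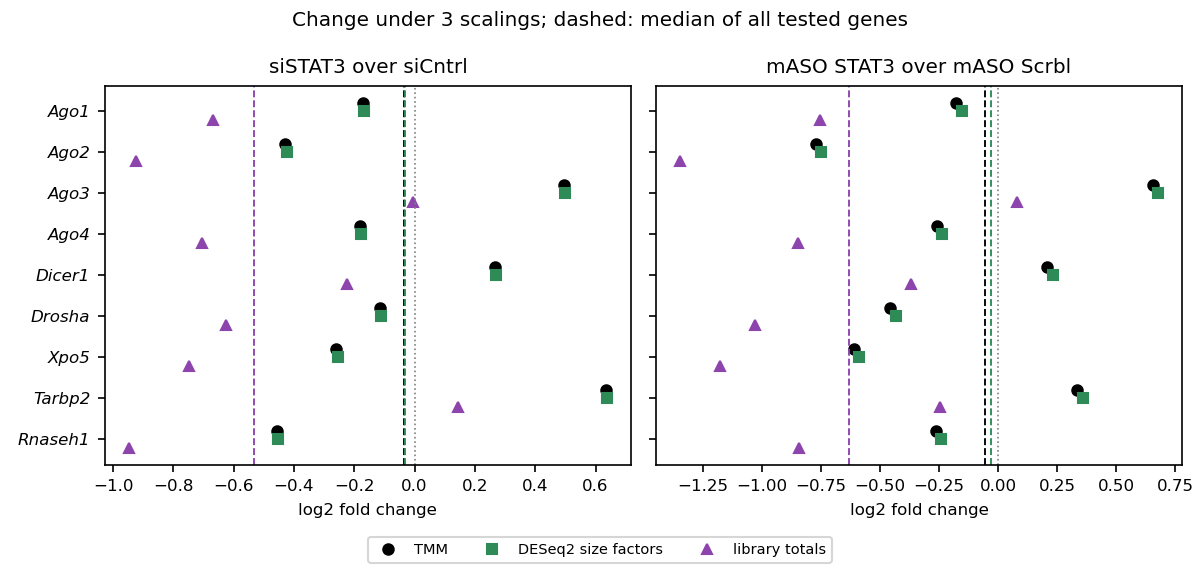
Log2 fold change (horizontal axis) of the 9 genes in each arm under TMM, DESeq2's size factors and library totals, with the median of all tested genes for each scaling as a dashed line. Under library totals the median lies at −0.53 and −0.63, and Ago3 at −0.01 and 0.08.

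Whether the difference between STAT3 and control livers depended on the kind of load was put to the difference of the changes, mASO arm minus siRNA arm. Each control carried the same kind of load as its STAT3 group. A response to the kind of load that both groups of an arm shared would therefore cancel out, and this comparison cannot show it. Of the 9 genes 0 were called by edgeR, 0 by DESeq2 and 0 by limma voom, and 0 had an unadjusted p under 0.05, where 0.00636% of all tested genes were called by edgeR. Over all 15720 tested genes DESeq2 called 61 and voom 1, and 1161 had an unadjusted edgeR p under 0.05. The difference for Ago2 was −0.34 (95% interval −0.76 to 0.07, edgeR adjusted p = 0.722), that for Rnaseh1 0.19 (−0.28 to 0.67, 0.865) and that for Ago3 0.16 (−0.35 to 0.67, 0.8995), on the log2 scale. For Drosha, Xpo5 and Tarbp2, called in 1 arm each, the differences were −0.34 (−0.82 to 0.14), −0.35 (−0.99 to 0.30) and −0.30 (−0.87 to 0.28), with edgeR adjusted p of 0.759, 0.816 and 0.823. A call in 1 arm is therefore not shown to be particular to it. The intervals are wide enough to leave differences of the size of the changes themselves undetectable here.

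**Figure D4:**
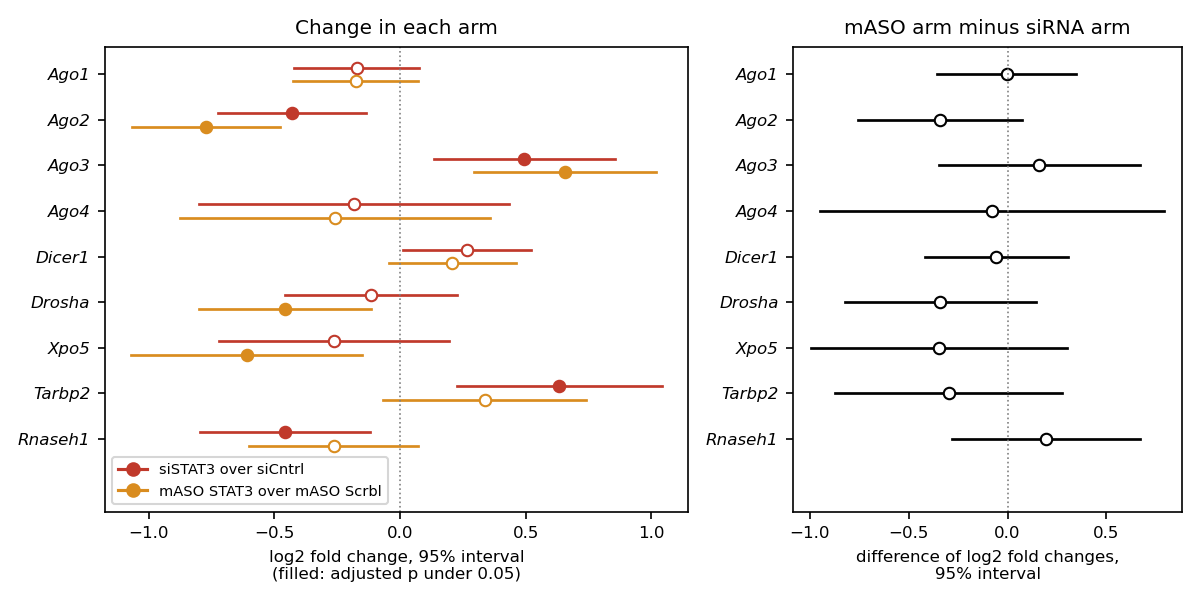
Log2 fold change with 95% interval of the 9 genes in the siRNA arm and the mASO arm (left; filled points passed edgeR's test) and the difference of the 2 changes (right). Ago2 and Ago3 are filled in both arms, and every interval of the difference spans 0.

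Between the control loads, mASO Scrbl against siCntrl, 0 of the 9 genes were called by edgeR, DESeq2 or voom, 0 had an unadjusted p under 0.05, and 0.0127% of all tested genes were called by edgeR. DESeq2 called 79 of the 15720 and voom 2, while 1234 passed 0.05 unadjusted in edgeR. Ago2 lay at 38.8 ± 1.55 CPM in mASO Scrbl and 33.4 ± 3.04 CPM in siCntrl (SD, n = 3), without overlap, at a fold change of 1.16 (0.949 to 1.42, edgeR adjusted p = 0.686). Its share of argonaute counts, 46.7% ± 1.74 and 42.1% ± 1.89, did not overlap either (exact permutation p = 0.1), and 6.75% of all tested genes were higher and 5.67% lower without overlap between these groups. Rnaseh1 was at 7.63 ± 0.296 CPM in mASO Scrbl and 8.45 ± 1.17 CPM in siCntrl (fold change 0.903, 0.717 to 1.14, edgeR adjusted p = 0.809). The labels do not say whether the arms were sequenced together, so a sequencing run and the kind of load cannot be told apart in this comparison. Between mASO STAT3 and siSTAT3, which share their libraries with the arms, 0 of the 9 genes were called by edgeR, DESeq2 or voom and 0 had an unadjusted p under 0.05, while edgeR called 0% of all tested genes (919 of 15720 had an unadjusted p under 0.05, DESeq2 called 78 and voom 0). None of the 9 was free of overlap there, where 6.04% of all tested genes were higher and 5.15% lower without overlap. The fold changes of the 9 genes there lay between 0.841 (Ago4, 0.546 to 1.29) and 1.05 (Ago3, 0.817 to 1.35).

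Levels of different genes were compared per kilobase of exon in GENCODE M21 gene models, an annotation that may differ from the one the authors counted on. Tarbp2 was the most abundant in every group, at 12.8 ± 2.43 CPM per kb in siSTAT3, 8.24 ± 1.31 in siCntrl, 11.6 ± 1.14 in mASO STAT3 and 9.17 ± 2.10 in mASO Scrbl (SD, n = 3). Below it Dicer1, Rnaseh1, Ago1, Xpo5 and Drosha lay close together, at 3.4997 to 4.91 CPM per kb in siSTAT3, 3.802 to 5.81 in siCntrl, 3.07 to 4.93 in mASO STAT3 and 4.19 to 5.24 in mASO Scrbl. Their order changed between groups: Dicer1 led these 5 in both STAT3 groups (4.91 ± 0.0619 and 4.93 ± 0.0637) and Rnaseh1 in both control groups (5.81 ± 0.806 and 5.24 ± 0.203). Rnaseh1 and Xpo5, next to each other in mASO Scrbl, did not differ beyond their spread (5.24 ± 0.203 and 5.18 ± 0.548), nor did Xpo5 and Drosha in siSTAT3 (3.4997 ± 0.915 and 3.51 ± 0.229). Ago2 came next, at 1.80 ± 0.270, 2.42 ± 0.220, 1.65 ± 0.163 and 2.81 ± 0.113 CPM per kb in siSTAT3, siCntrl, mASO STAT3 and mASO Scrbl. Ago3 and Ago4 closed the order. Ago3 was above Ago4 in mASO STAT3 (0.899 ± 0.0259 and 0.641 ± 0.125) and below it in mASO Scrbl (0.5703 ± 0.112 and 0.767 ± 0.0551), while in the siRNA arm they did not differ beyond their spread. The gene models of Ago2 and Ago3 are long, at 13800 and 15595 bases of exon, so their values per kilobase would be higher if the authors' models were shorter. Those of Tarbp2 and Rnaseh1 are short, at 1625 and 1455 bases, so the top of the order rests on short models. Without division by length Dicer1 was above Tarbp2 in every group (48.4 against 20.8 CPM in siSTAT3). In these models 219 bases of Ago2 exons, 1.59% of their length, overlap exons of Chrac1 on the other strand. Reads there cannot be assigned if the counting ignored strand.

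Genes that followed Ago2 and Rnaseh1 most closely were found by the mean absolute difference of log2 CPM over the 12 libraries, each gene centred on its own mean. For Ago2 they were Ap2a1, a subunit of a clathrin adaptor (0.0535 on the log2 scale), Arpc2, a subunit of the actin-branching ARP2/3 complex (0.0658), and Esyt2, an extended synaptotagmin (0.0671). Ap2a1 averaged 28.9 CPM in siSTAT3 against 37.5 CPM in siCntrl. Its mASO STAT3 mean was 25.95 CPM, against 43.7 CPM in mASO Scrbl. For Rnaseh1 they were Tsc22d2 (0.0483), the reticulon gene Rtn3 (0.0691) and Phf10 (0.0762). Rtn3 averaged 118 CPM in siSTAT3 against 154 CPM in siCntrl. Its mASO STAT3 mean was 117 CPM, against 147 CPM in mASO Scrbl. These are descriptions, with no test.

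Around the 9 genes, 4 lists of partners were examined, chosen with earlier results of these data known. The first held 26 silencing effectors and their partners, among them proteins that shorten and decap argonaute-bound mRNA. Of all 26, 6 were higher and 4 lower in siSTAT3 and 5 higher and 7 lower in mASO STAT3. Their medians were 0.17 and −0.08 on the log2 scale. Among all tested genes 22.4% were higher and 23.4% lower in siSTAT3, and 21.3% and 22.5% in mASO STAT3. Among those named by rule, the deadenylase gene Cnot8 was higher in both arms (log2 fold change 0.995 ± 0.14 and 1.10 ± 0.14, edgeR adjusted p = 6.75e-05 and 3.03e-05). Ajuba, a LIM-domain protein gene, was lower in both (−2.45 ± 0.24 and −2.43 ± 0.23, edgeR adjusted p = 3.46e-06 and 2.93e-06). Pan2, a further deadenylase gene, was higher (0.95 ± 0.26 and 0.87 ± 0.26, edgeR adjusted p = 0.00924 and 0.0159). Its siRNA arm call ended under library totals (0.45, edgeR adjusted p = 0.149). Its mASO arm call ended under library totals (0.344) and without mASO STAT3 1 (0.0612) or mASO Scrbl 2 (0.0599). Without siSTAT3 2 the log2 fold change of Pan2 in the siRNA arm was 0.45, with its call kept (0.0253). Wtip, a further LIM-domain gene, was lower in the siRNA arm (−1.04 ± 0.30, edgeR adjusted p = 0.0121), a call that ended without siSTAT3 1 (0.0502). In the main fit Wtip was lower in the mASO arm too (−0.88 ± 0.30, edgeR adjusted p = 0.0295). Xrn1, the exonuclease gene that degrades decapped mRNA, was lower in the mASO arm (−1.16 ± 0.43, edgeR adjusted p = 0.0402), a call that ended without any 1 of 5 of the 6 libraries (0.079 to 0.118), mASO Scrbl 3 being the exception.

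Of 14 genes of argonaute loading and chaperones, 2 were higher and 6 lower in each arm, with medians of −0.22 and −0.08, beside 22.4% higher and 23.4% lower of all tested genes for siSTAT3, and 21.3% and 22.5% for mASO STAT3. HSP90, with its cochaperones, holds an argonaute open while a duplex is loaded. Hsp90aa1, the inducible HSP90 gene, was lower in both arms (−1.51 ± 0.21 and −1.13 ± 0.21, edgeR adjusted p = 6.77e-05 and 6.52e-04), and Stip1, a cochaperone gene, was among the lowest in the siRNA arm (−1.11 ± 0.17, edgeR adjusted p = 1.49e-04). Dhx9, an RNA helicase gene, was among the lowest in the mASO arm (−0.91 ± 0.19, edgeR adjusted p = 0.00185). In the main fit Stip1 was lower in the mASO arm too (−0.76 ± 0.17, edgeR adjusted p = 0.00248), and Dhx9 in the siRNA arm (−0.78 ± 0.19, edgeR adjusted p = 0.00462). On the other side stood Ptges3, the p23 cochaperone (0.61 ± 0.14 and 0.41 ± 0.14, edgeR adjusted p = 0.00260 and 0.0278). Its call ended under library totals in both arms (0.11 and −0.18, edgeR adjusted p = 0.524 and 0.306), and in the mASO arm also with no filter (0.0538) and without mASO STAT3 1 (0.0577), mASO STAT3 3 (0.125), mASO Scrbl 1 (0.137) or mASO Scrbl 3 (0.0552). Fkbp4, which encodes a further HSP90 cochaperone, was higher in both arms (0.36 ± 0.12 and 0.37 ± 0.12, edgeR adjusted p = 0.0272 and 0.0223). It lay below 0 under library totals (−0.14 and −0.20), and its call ended in 7 and 6 of 14 alternatives, with adjusted p up to 0.408 and 0.235.

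Of 18 tested cofactors of microRNA processing and tailing, out of 20 listed, 5 were higher and 5 lower in siSTAT3 and 4 higher and 5 lower in mASO STAT3, with medians of 0.08 and −0.02. The shares of all tested genes were 22.4% higher and 23.4% lower for siSTAT3, 21.3% and 22.5% for mASO STAT3. Eri1, an exonuclease gene that trims small RNA, was lower in both arms (−1.13 ± 0.15 and −1.55 ± 0.15, edgeR adjusted p = 3.69e-05 and 2.57e-06). Ran, whose protein drives export through exportin 5, was among the lowest in the siRNA arm (−1.05 ± 0.14, edgeR adjusted p = 5.86e-05), and the splicing factor gene Hnrnpa1 was the lowest in the mASO arm (−1.78 ± 0.25, edgeR adjusted p = 9.20e-05). In the main fit Ran was lower in the mASO arm too (−1.23 ± 0.14, edgeR adjusted p = 1.64e-05), and Hnrnpa1 in the siRNA arm (−1.01 ± 0.25, edgeR adjusted p = 0.00479). Adarb1, an RNA editing enzyme gene, was higher in the siRNA arm (0.77 ± 0.15, edgeR adjusted p = 7.70e-04) and Zswim8, a gene of microRNA decay, in the mASO arm (0.64 ± 0.16, edgeR adjusted p = 0.00579), and both calls ended under library totals (0.141 and 0.754). In the main fit Zswim8 was higher in the siRNA arm too (0.51 ± 0.16, edgeR adjusted p = 0.0197). Ddx17, an RNA helicase gene of the Drosha complex, was higher in the siRNA arm (0.70 ± 0.21, edgeR adjusted p = 0.0129), which ended under library totals (0.463) and without siCntrl 1 (0.0531) or siSTAT3 2 (0.0618). Papd4, a poly(A) polymerase gene, was higher in the mASO arm (0.43 ± 0.15, edgeR adjusted p = 0.0291), which ended in 7 of 14 alternatives with adjusted p up to 0.426, and it lay at −0.15 under library totals. In the main fit Papd4 was higher in the siRNA arm too (0.56 ± 0.15, edgeR adjusted p = 0.00669). Alternatives to the siRNA arm calls of Zswim8 and Papd4 are not given here.

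Of 13 genes of RNase H2 and of proteins that bind antisense oligonucleotides, 2 were higher and 5 lower in siSTAT3 and 2 higher and 9 lower in mASO STAT3, with medians of −0.32 and −0.61. All tested genes gave 22.4% higher and 23.4% lower for siSTAT3, and 21.3% and 22.5% for mASO STAT3. The higher ones in each arm were Rnaseh2b and Rnaseh2c, which encode subunits of RNase H2, the sister enzyme of RNase H1. Rnaseh2a, a further subunit gene on the list, was called in neither arm (log2 fold changes 0.26 and 0.08, edgeR adjusted p = 0.310 and 0.771). Rnaseh2c had log2 fold changes of 0.88 ± 0.22 and 0.96 ± 0.22 (edgeR adjusted p = 0.00434 and 0.00267) and Rnaseh2b of 0.68 ± 0.21 and 0.66 ± 0.21 (edgeR adjusted p = 0.0165 and 0.0200). Both calls ended under library totals in each arm (0.116 and 0.127 for Rnaseh2c, 0.530 and 0.774 for Rnaseh2b). That of Rnaseh2b also ended without siCntrl 1 (0.0672), siCntrl 3 (0.0554) or siSTAT3 2 (0.0545) in the siRNA arm, and without mASO STAT3 1 (0.1001), mASO Scrbl 1 (0.0619) or mASO Scrbl 2 (0.0868) in the mASO arm. Among the lowest were Pspc1, a paraspeckle protein gene (−1.50 ± 0.35 and −1.74 ± 0.35, edgeR adjusted p = 0.00407 and 0.00163), and, in the siRNA arm, Ssb, which encodes the La protein (−0.97 ± 0.17, edgeR adjusted p = 4.59e-04). In the main fit Ssb was lower in the mASO arm too (−0.84 ± 0.17, edgeR adjusted p = 0.00145). Fen1, a flap endonuclease gene of DNA replication, was the lowest in the mASO arm (−2.87 ± 0.71, edgeR adjusted p = 0.00487), and ran from −4.21 to −2.40 with 1 library left out. It lay near the floor, with 2, 10 and 1 counts in mASO STAT3 against 59, 40 and 63 in mASO Scrbl. The size of its change is therefore uncertain. Fen1 passed the filter on low counts through the control libraries, where it was high, and did not pass the filter of 1 CPM in 3 libraries. Its place as the lowest, and among the 9 lower in mASO STAT3, thus rests on that entry to the test. Of the 71 tested list members 0 were called in the difference of the arms by edgeR, where 0.00636% of all tested genes were. With so few calls among all genes, this count says nothing particular to the lists.

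**Figure D5:**
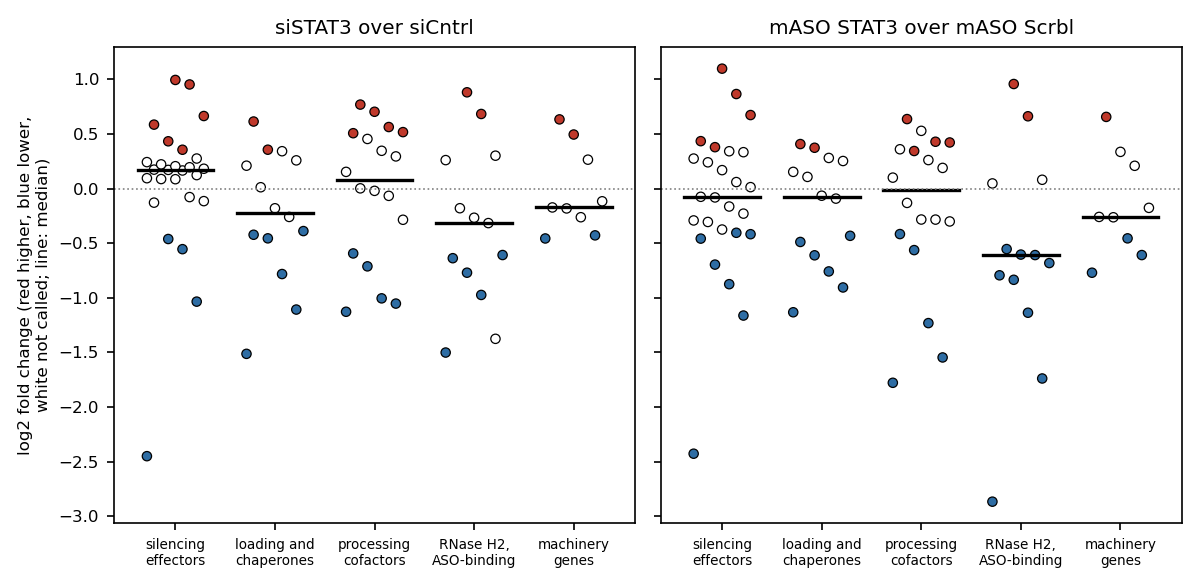
Log2 fold change of each tested member of the 4 partner lists and of the 9 machinery genes in the siRNA arm (left) and the mASO arm (right), coloured where edgeR's test was passed, with the median as a line. The RNase H2 and antisense-binding list has the lowest medians, −0.32 and −0.61.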

How the data were processed

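The authors deposited raw counts, whole numbers per gene symbol, for 12 liver mRNA libraries from a stranded Illumina kit, per the labels' protocols. A normalized signal that the authors also deposited was found to be those counts over 1 scaling factor per library and was not used further. The submitters' processing notes name TopHat and Cufflinks, with no version. Genome build, annotation, counter and use of strand: not given in the sources used here.

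The 12 libraries were fitted jointly in edgeR 4.0.16 (R 4.3.3), one coefficient per group, after TMM scaling. Its expression filter (at least 10 counts, at least 15 in total) kept 15720 of 25540 symbols. Genes were called by the robust quasi-likelihood F test at a Benjamini-Hochberg adjusted p under 0.05, and the biological coefficient of variation was 0.247. Alternatives were DESeq2 1.42.0, limma voom 3.58.1, other scalings and filters, the compared groups alone, a block for replicate number, and leaving out each library. Shares and ratios within a library were tested by exact two-sided permutation. Their 24 comparisons between pairs of groups had adjusted p of at least 0.267. A planned ratio with Dgcr8 was not made. The fit was tested on simulated data. Members and lists were chosen with earlier results of these data known. The text names the 9 genes, Stat3, the 3 genes most like Ago2 and Rnaseh1, and in each list and arm the called genes with the 2 highest and 2 lowest fold changes. Where a list gene so named was called in the other arm too, that value is also given.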

Additional observations from a re-analysis of the deposited data

How the results depend on the processing

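Counts of called genes among the 9 are small, and 1 library can decide them. Leaving out 1 library gave 0 to 2 higher and 0 to 2 lower in the siRNA arm (0 and 0 without siSTAT3 2), 1 to 2 higher (2 without mASO Scrbl 2) and 1 to 3 lower in the mASO arm, and 2 to 3 higher and 2 to 4 lower in the mean of both arms, where the main counts were 2 and 2, 1 and 3, and 3 and 4. In the mASO arm 1 was lower without mASO STAT3 1 or 3 or mASO Scrbl 1 or 2. In the siRNA arm 1 was lower without siCntrl 1, 2 or 3 or siSTAT3 3, and 1 was higher without siCntrl 2. Library totals gave 0 higher and 5 lower in the siRNA arm, 0 and 7 in the mASO arm and 0 and 7 in their mean. In the siRNA arm no filter gave 1 and 1, and the compared groups alone 1 and 0. The cause was not tested. The counts of 0 in the difference of the arms, between the controls and between the STAT3 groups were 0 under every alternative run.

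The replicate number as a block gave the same counts as the fit without it, 2 and 2 in the siRNA arm, 1 and 3 in the mASO arm. Deviations from group means of same-numbered libraries correlated at −0.238 to 0.187, and 9 of 24 comparisons were best with the own number. These were 4 of 6 in the siRNA arm, 1 of 6 in the mASO arm, and 2 of 6 both between the controls and between the STAT3 groups. With 3 libraries a group, this cannot decide whether same-numbered libraries share a batch or another pairing.

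Library totals turned the direction of these log2 fold changes. In the siRNA arm Ago3 was at −0.0069, Dicer1 at −0.22 and Fkbp4 at −0.14. In the mASO arm Dicer1 was at −0.37 (called lower), Tarbp2 at −0.25, Stat3 at −0.53 (called lower), Ptges3 at −0.18, Fkbp4 at −0.20 and Papd4 at −0.15. Between the controls Ago1 was at 0.091 and Ago3 at 0.013, between the STAT3 groups Ago1 at 0.0065, and in the mean of both arms Dicer1 at −0.30 and Tarbp2 at −0.051. The difference of the arms for Ago1, −0.0038, was 0.013 with DESeq2's size factors, 0.015 with its Wald test, 0.0077 with voom, 0.011 with no filter and 0.0081 with a filter of 1 CPM in 3 libraries. With 1 library left out, uncalled values ran across 0 for Ago4 (−0.49 to 0.13), Drosha (−0.25 to 0.042), Stat3 (−0.12 to 0.082) in the siRNA arm and Stat3 (−0.042 to 0.15) in the mASO arm. In the difference of the arms they did so for Ago1 (−0.051 to 0.085), Ago4 (−0.39 to 0.23), Dicer1 (−0.16 to 0.017). Between the controls it was Ago1 (−0.085 to 0.023), Ago3 (−0.26 to 0.0078), Ago4 (−0.38 to 0.14), Dicer1 (−0.011 to 0.17), Drosha (−0.012 to 0.31), Tarbp2 (−0.044 to 0.28), and between the STAT3 groups Ago1 (−0.0702 to 0.066), Ago4 (−0.46 to 0.061), Dicer1 (−0.0058 to 0.016), Rnaseh1 (−0.012 to 0.10), Tarbp2 (−0.23 to 0.022), Xpo5 (−0.24 to 0.14). The Ago4 share over both arms ran from −0.65 to 0.71 percentage points. The log2 ratio of Dicer1 to Drosha ran from 0.15 to 0.50 between siSTAT3 and siCntrl and from −0.33 to 0.028 between the controls.

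List counts moved most with library totals, which left 0 or 1 higher in each list and arm and 9 to 11 lower, or 10 and 17 for the silencing effectors. With 1 library left out the higher and lower counts of the siRNA arm were 4 to 6 and 2 to 4 (effectors), 1 to 3 and 3 to 6 (loading), 3 to 6 and 5 to 6 (processing) and 1 to 2 and 5 to 6 (RNase H2 list). Those of the mASO arm were 2 to 6 and 3 to 5, 0 to 2 and 5 to 6, 1 to 3 and 4 to 5, and 1 to 2 and 8 to 9.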
